A study of Mus musculus with 12 samples.

Results

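The proteasome genes described here are all rows of the count table whose symbol is Psm followed by a letter from a to g and a number. There were 48 such genes among 25540 rows, and 47 of them passed the filter on low counts. Psmb11 did not pass, with 1 count in 1 siCntrl library and 0 in the other 11. The values come from messenger RNA of 12 liver samples of BALB/c mice in 4 groups of 3, each group named after an injected exosome preparation (iExos) and what it carried. The siCntrl and mASO Scrbl loads were the controls, and the siSTAT3 and mASO STAT3 loads were directed at the transcription factor STAT3 by a small interfering RNA and by an antisense oligonucleotide. The labels do not spell out the m of mASO, and they give no age, sex, dose, time or injury for any group. The title of the series places the work in liver fibrosis, and uninjected livers were not analysed here. The label of each sample gives a number within its group but not whether the numbers are separate animals, so p-values measure only the spread between these samples.

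The proteasome is the protease that degrades ubiquitin-tagged proteins. Its core particle is a barrel of outer alpha rings and inner beta rings, and Psmb5, Psmb6 and Psmb7 encode the beta subunits with proteolytic sites. Interferon gamma induces Psmb8, Psmb9 and Psmb10, whose products take the places of Psmb5, Psmb6 and Psmb7 in newly built core particles to form the immunoproteasome, which favours peptides that bind MHC class I. Interferon gamma also induces Psme1 and Psme2, the subunits of an activator ring that docks on the core particle without ATP. The regulatory particle, made of the ATPases Psmc1 to Psmc6 and the non-ATPase Psmd subunits, binds, deubiquitinates and unfolds substrates. Hepatocytes mostly hold the constitutive form, while blood cells and interferon-exposed tissue hold more of the immunoproteasome.

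In both arms the 5 interferon-inducible genes stood above their control and many genes of the constitutive particle stood below it. Psmb8, Psmb9, Psmb10, Psme1 and Psme2 all passed the test as higher with the siSTAT3 load, with log2 fold changes of 0.42 to 1.37, and with the mASO STAT3 load, with 0.42 to 1.16, although Psme1 turned below 0 with library totals as the scaling. Of the 31 constitutive subunits of the core and regulatory particles, 16 passed as lower and 0 as higher in the siRNA arm, and 15 as lower and 1 as higher in the mASO arm. Their median log2 fold change was −0.35 in each arm, beside −0.04 and −0.05 over all genes tested. Over all 47 genes tested, 7 were higher and 17 lower in the siRNA arm, where 22.4% of all 15720 genes were called higher and 23.4% lower, or 45.7% either way. In the mASO arm 8 were higher and 17 lower, beside 21.3% and 22.5% of all genes, or 43.8% either way. The groups did not overlap for 8 genes that were higher and 19 that were lower in the siRNA arm, beside 25.5% and 27.5% of all genes, and for 9 and 22 in the mASO arm, beside 27.2% and 29.6%. With all 12 libraries the share of higher calls was thus below that of all genes and the share of lower calls above it. The excess of lower calls depended on single libraries. Without siCntrl 1 it was gone in the siRNA arm, with 9 proteasome genes lower beside 3400 of 16015 genes. Without mASO Scrbl 2 the share was near that of all genes in the mASO arm, with 9 lower beside 2971 of 15986 genes. The 5 inducible genes and the chaperone gene Psmg3 were called higher in both arms, and 14 genes were called lower in both. The share of all genes called the same way in both arms was not counted, so these counts have no background beside them. These calls come from edgeR's quasi-likelihood test at a Benjamini-Hochberg adjusted p under 0.05 over all genes, on counts scaled by TMM, a trimmed mean of the ratios between libraries.

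The scaling sets where 0 lies in these fold changes. With library totals in place of TMM the median of all genes moved to −0.53 in the siRNA arm and −0.63 in the mASO arm. The calls over all genes then became 1655 higher and 7266 lower in the siRNA arm, in place of 3515 and 3675, and 1525 higher and 7939 lower in the mASO arm, in place of 3344 and 3542. Under that scaling 2 proteasome genes, Psmb8 and Psmb10, were called higher in each arm, and 35 and 36 were called lower. Psmb9 and Psme2 kept a positive but uncalled change, and Psme1 turned to −0.08 and −0.16. Relative to the median of all genes, the 5 inducible genes stood above it in both arms. Of the 31 constitutive subunits, 22 stood below it in the siRNA arm and 24 in the mASO arm. A change of scaling moves all genes of a comparison by nearly the same amount. These positions are therefore the same under both scalings by construction, which is not a check of them. Changes given below are with TMM. Besides Psmb9, 6 of the genes described with values share 100 or more exonic bases with another gene in GENCODE M21, so some reads may belong to the other gene. These are Psmb8 (186 bases with Gm20496), Psmb7 (405 with Nek6) and Psmd13 (152 with Sirt3) on the opposite strand, and Psmb5 (109 with Mir686), Psmd1 (301 with Gm21972) and Psmg3 (237 with Gm26938) on the same strand.

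**Figure D1:**
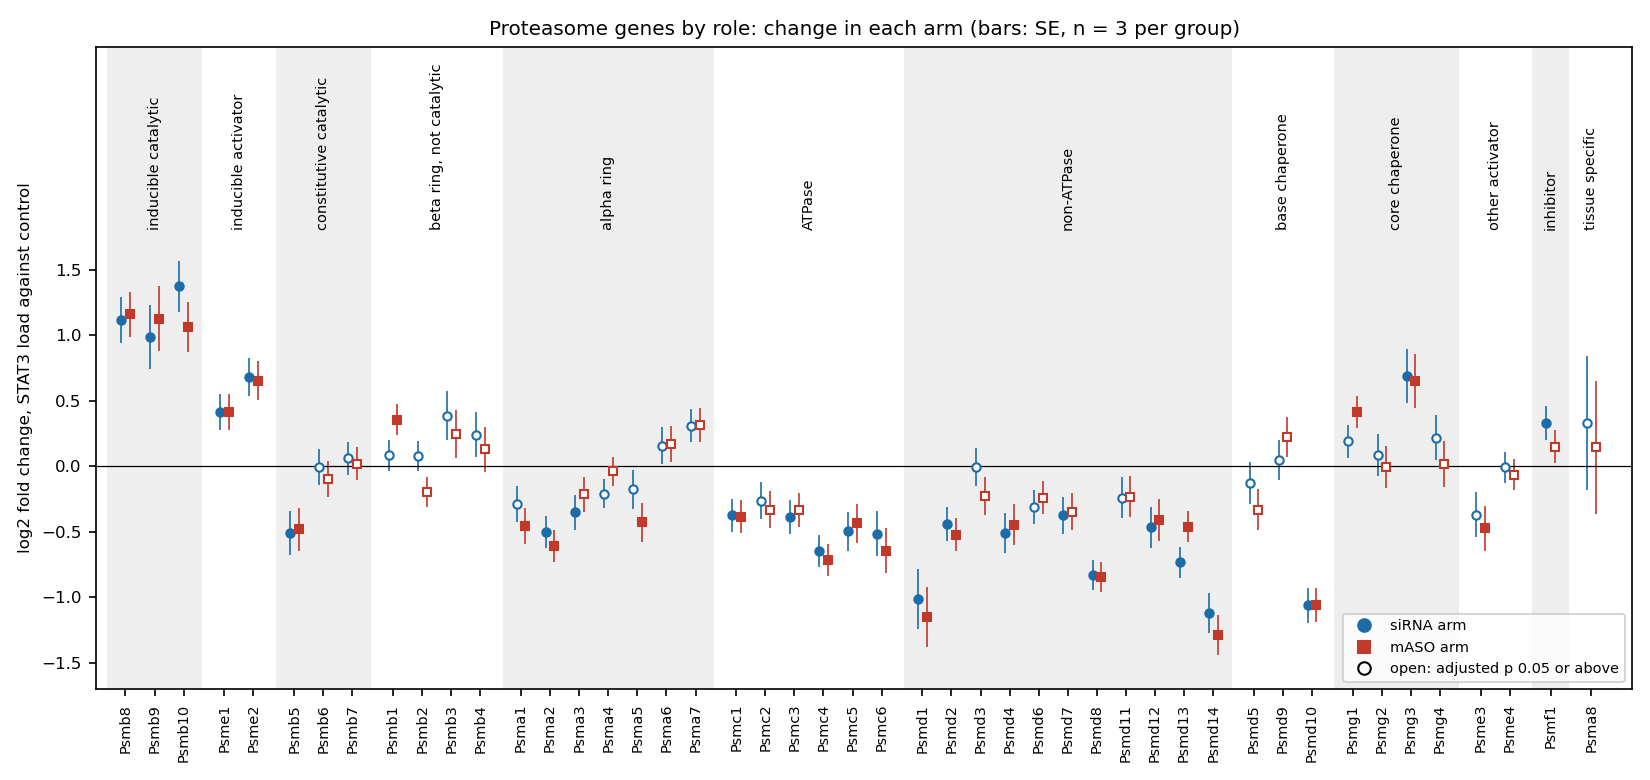
Log2 fold change (y axis) of each of the 47 tested proteasome genes, grouped by role, with its standard error, for siSTAT3 against siCntrl (blue circles) and mASO STAT3 against mASO Scrbl (red squares). Filled symbols passed the edgeR test. The inducible genes lie between 0.42 and 1.37 and Psmd14 is the lowest at −1.12 and −1.29. With library totals as the scaling all points move down by about the shift of the median, and the called points of Psme1, Psmf1, Psmb1 and Psmg1 fall below 0.

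Depth was 39844158 to 67791159 counts per library, and Stat3 itself, which labels the loads, was not called in either arm with TMM. Its level was 106, 121 and 111 CPM (the usual depth-scaled count, here on TMM-scaled totals) in siCntrl 1, 2 and 3 and 91.5, 117 and 122 in siSTAT3, a log2 fold change of −0.03 ± 0.14 (SE). In the mASO arm it was 106, 89.96 and 101 in the controls and 105, 88.2 and 115 with mASO STAT3, a change of 0.05. With library totals Stat3 was called lower, at −0.54 (edgeR adjusted p = 0.00446) and −0.53 (adjusted p = 0.00413), as the median of all genes moved to −0.53 and −0.63. The groups overlapped in both arms, so the level of Stat3 in these libraries does not check the labels. The 9 measured hepatocyte markers, which check the labelled tissue, ranged in sum from 55051 to 94110 CPM in siCntrl and from 59152 to 88630 in mASO Scrbl. In siSTAT3 they ranged from 126619 to 137164 and in mASO STAT3 from 110340 to 148953, with 5 called higher and 0 lower in each arm.

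Markers of other cells moved between the same groups, each list given as its summed level. The calls in brackets stand beside 22.4% of all genes called higher and 23.4% lower in the siRNA arm. In the mASO arm the shares were 21.3% and 22.5%. The 8 leukocyte markers ranged from 195 to 408 CPM in siCntrl against 164 to 199 with siSTAT3 (0 called higher, 6 lower), and from 166 to 239 in mASO Scrbl against 173 to 193 with mASO STAT3 (0 higher, 1 lower). The 10 T and NK cell markers ranged from 3.63 to 6.88 CPM against 4.17 to 7.22 (1 higher, 2 lower), and from 3.21 to 4.77 against 7.41 to 8.02 (3 higher, 0 lower). The 5 B and plasma cell markers ranged from 2.69 to 5.40 CPM against 4.87 to 7.19 (0 called), and from 3.11 to 3.66 against 5.51 to 10.7 (2 higher, 0 lower). The leukocyte sum was thus not higher in either STAT3 group, while both lymphocyte sums of the mASO STAT3 libraries lay above those of their controls. The 9 Kupffer cell and macrophage markers overlapped, at 436 to 1149 CPM against 508 to 689 (1 higher, 2 lower), and at 453 to 783 against 555 to 624 (2 higher, 2 lower). The 6 endothelial markers overlapped too, between 92.5 and 161 CPM over all groups (0 higher and 3 lower, then 1 higher and 2 lower). The 8 monocyte markers lay below their controls, at 990 to 2019 CPM against 235 to 317 (0 higher, 7 lower), and at 829 to 1715 against 253 to 297 (0 higher, 4 lower). So did the 6 neutrophil markers, with Ly6g at 0 in 1 library, mASO Scrbl 2, at 45.2 to 88.2 CPM against 13.7 to 43.0 (0 higher, 3 lower), and at 33.1 to 75.5 against 18.3 to 19.3 (0 higher, 4 lower). The 8 stellate cell markers were at 935 to 1211 CPM against 182 to 220 (1 higher, 6 lower), and at 666 to 1494 against 211 to 267 (2 higher, 6 lower). The 5 cholangiocyte markers were at 540 to 1375 CPM against 81.7 to 132 (0 higher, 4 lower), and at 581 to 1321 against 67.7 to 93.4 (0 higher, 3 lower). Spp1 was in both the monocyte list and the cholangiocyte list, so these sums and calls are not separate. In bulk liver RNA, fewer cells of a type and less RNA per cell cannot be told apart. The part that these cells have in the levels of the proteasome genes was not tested.

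Psmb8, which encodes the inducible counterpart of Psmb5, was at 28.4, 29.7 and 24.5 CPM in siCntrl 1, 2 and 3 and at 48.7, 72.0 and 57.9 in siSTAT3. It was at 33.8, 23.4 and 30.0 CPM in mASO Scrbl and at 67.7, 54.9 and 72.1 in mASO STAT3. All 6 STAT3 libraries lay above all 6 controls. Psmb8 rose by a log2 fold change of 1.11 ± 0.17 (SE, n = 3 against 3, edgeR adjusted p = 0.000179) in the siRNA arm and 1.16 ± 0.17 (adjusted p = 0.000132) in the mASO arm, and the call stood in every alternative run.

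Psmb9, the inducible counterpart of Psmb6, was at 15.9, 18.2 and 13.8 CPM in siCntrl and 24.9, 34.6 and 35.4 in siSTAT3. In the mASO arm it was at 20.7, 9.81 and 17.9 CPM with mASO Scrbl and 34.2, 28.9 and 42.6 with mASO STAT3. The groups did not overlap in either arm, although mASO Scrbl 2 lay well below the other controls. Psmb9 rose by 0.99 ± 0.25 (edgeR adjusted p = 0.00509) and 1.13 ± 0.25 (adjusted p = 0.00229) on the log2 scale. With library totals as the scaling the changes were 0.48 and 0.54 and were no longer called, at adjusted p = 0.103 and 0.0647. The Psmb9 gene shares 212 exonic bases with Tap1 on the opposite strand in GENCODE M21, and Tap1, a peptide transporter gene at 19.0 to 35.6 CPM over all libraries, was not called in either arm.

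Psmb10, the inducible counterpart of Psmb7, was the most abundant of the 3 per length. It was at 39.7, 38.4 and 36.4 CPM in siCntrl and 70.0, 133 and 94.1 in siSTAT3. It was at 45.8, 35.4 and 44.9 CPM in mASO Scrbl and 94.2, 77.9 and 90.8 in mASO STAT3. Again every STAT3 library lay above every control, with siSTAT3 2 the highest of the 12. Psmb10 rose by 1.37 ± 0.19 (edgeR adjusted p = 7.38e-05) and 1.06 ± 0.19 (adjusted p = 0.000562), and the siRNA arm change was 1.104 without siSTAT3 2, the lowest when single libraries were left out.

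To show the start regions of genes that moved together or apart, the 200 bases before the annotated start of 5 genes are printed from RefSeq (GRCm38.p6), each 5′ to 3′ on the strand of the gene and ending at the base before the start. Psmb8 (chr17:34197995-34198194, plus strand) and Psmb9 (chr17:34187331-34187530, minus strand) lie close together in the class II region of chromosome 17, and Psmb10 (chr8:105938393-105938592, minus strand) lies on chromosome 8. Psmb5 (chr14:54617996-54618195, minus strand) is the constitutive counterpart of Psmb8, and Psmd14 (chr2:61711494-61711693, plus strand) had the lowest mean change of all 47 genes. Capitals mark a match to TTCNNNGAA, the letters of the gamma-activated site, in Psmb8, to TGACNNNGC, the core of the antioxidant response element, in Psmb5, and to CCAAT on the opposite strand in Psmb9 and Psmd14. The Psmb10 window held no match to any motif searched.
Psmb8: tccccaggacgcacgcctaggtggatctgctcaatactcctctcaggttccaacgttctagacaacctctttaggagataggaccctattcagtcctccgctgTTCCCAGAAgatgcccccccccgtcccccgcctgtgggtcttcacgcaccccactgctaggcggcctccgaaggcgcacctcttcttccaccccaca
Psmb9: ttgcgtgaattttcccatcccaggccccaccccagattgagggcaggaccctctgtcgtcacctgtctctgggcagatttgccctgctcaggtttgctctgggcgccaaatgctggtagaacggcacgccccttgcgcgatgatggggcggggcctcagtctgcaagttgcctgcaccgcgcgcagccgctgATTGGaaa
Psmb10: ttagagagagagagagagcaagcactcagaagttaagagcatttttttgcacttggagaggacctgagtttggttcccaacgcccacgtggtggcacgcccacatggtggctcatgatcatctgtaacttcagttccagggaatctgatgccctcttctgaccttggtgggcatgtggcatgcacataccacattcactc
Psmb5: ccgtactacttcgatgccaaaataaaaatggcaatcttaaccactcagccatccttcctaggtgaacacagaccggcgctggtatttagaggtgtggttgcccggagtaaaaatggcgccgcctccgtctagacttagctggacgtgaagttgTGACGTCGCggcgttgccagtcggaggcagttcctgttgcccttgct
Psmd14: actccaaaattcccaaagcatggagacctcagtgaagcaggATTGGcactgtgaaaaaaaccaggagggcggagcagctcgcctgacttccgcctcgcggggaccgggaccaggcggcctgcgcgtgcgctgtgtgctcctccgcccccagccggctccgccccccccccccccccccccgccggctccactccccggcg

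The same motifs were counted on both strands in the windows of 40 of the 48 genes that RefSeq's table held. TTCNNNGAA was found in 1 gene, Psmb8, with its first base at −97 from the start, and in 5.49% of all 32851 windows of that length. The interferon-stimulated response element, searched as GAAA, any 2 bases and GAAA, was found in Psmb3, Psmd4 and Psmd9 and in 2.27% of all windows. TGACNNNGC was found in Psmb5, Psmb6 and Psmd9 and in 8.60% of all windows. CCAAT was found in 14 genes, Psmb9, Psmd14 and Psmd10 among them, and in 29.3% of all windows. Apart from Psmb8 and Psmb9, the inducible genes held none of these letters in this window. A match describes the sequence only, and overlapping matches of different motifs were each counted.

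Of the constitutive counterparts Psmb5 was called and Psmb6 and Psmb7 were not, and the difference between them was not tested. Psmb5, which encodes the chymotrypsin-like site, was at 59.2, 43.7 and 56.8 CPM in siCntrl and 35.3, 43.9 and 33.0 in siSTAT3, and at 63.5, 58.2 and 51.3 in mASO Scrbl and 48.8, 34.6 and 40.7 in mASO STAT3. The groups overlapped in the siRNA arm, where siSTAT3 2 was just above siCntrl 2, and did not in the mASO arm. Psmb5 fell by 0.51 (SE 0.17, edgeR adjusted p = 0.0219) and by 0.48 (SE 0.17, adjusted p = 0.0300) on the log2 scale. The call ended when siCntrl 1, siCntrl 3, siSTAT3 1 or siSTAT3 3 was left out (adjusted p = 0.0778, 0.0658, 0.0688 and 0.0821), and without mASO STAT3 2, mASO STAT3 3, mASO Scrbl 1 or mASO Scrbl 2 (0.119, 0.0779, 0.104 and 0.0647).

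Psmb6, which encodes the caspase-like site, was at 237, 211 and 195 CPM in siCntrl and 190, 256 and 196 in siSTAT3, and at 221, 231 and 238 in mASO Scrbl and 230, 209 and 205 in mASO STAT3. Psmb7, which encodes the trypsin-like site, was at 170, 129 and 150 CPM in siCntrl and 164, 140 and 163 in siSTAT3, and at 165, 175 and 166 in mASO Scrbl and 180, 161 and 171 in mASO STAT3. Both genes overlapped between the groups of each arm. The log2 fold changes were −0.0017 and −0.10 for Psmb6, with 95% intervals from −0.30 to 0.29 and from −0.39 to 0.20, and neither was called. For Psmb7 they were 0.060 and 0.018, with intervals from −0.21 to 0.33 and from −0.25 to 0.29. With library totals as the scaling both genes were called lower in both arms, with changes of −0.68 to −0.43.

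**Figure D2:**
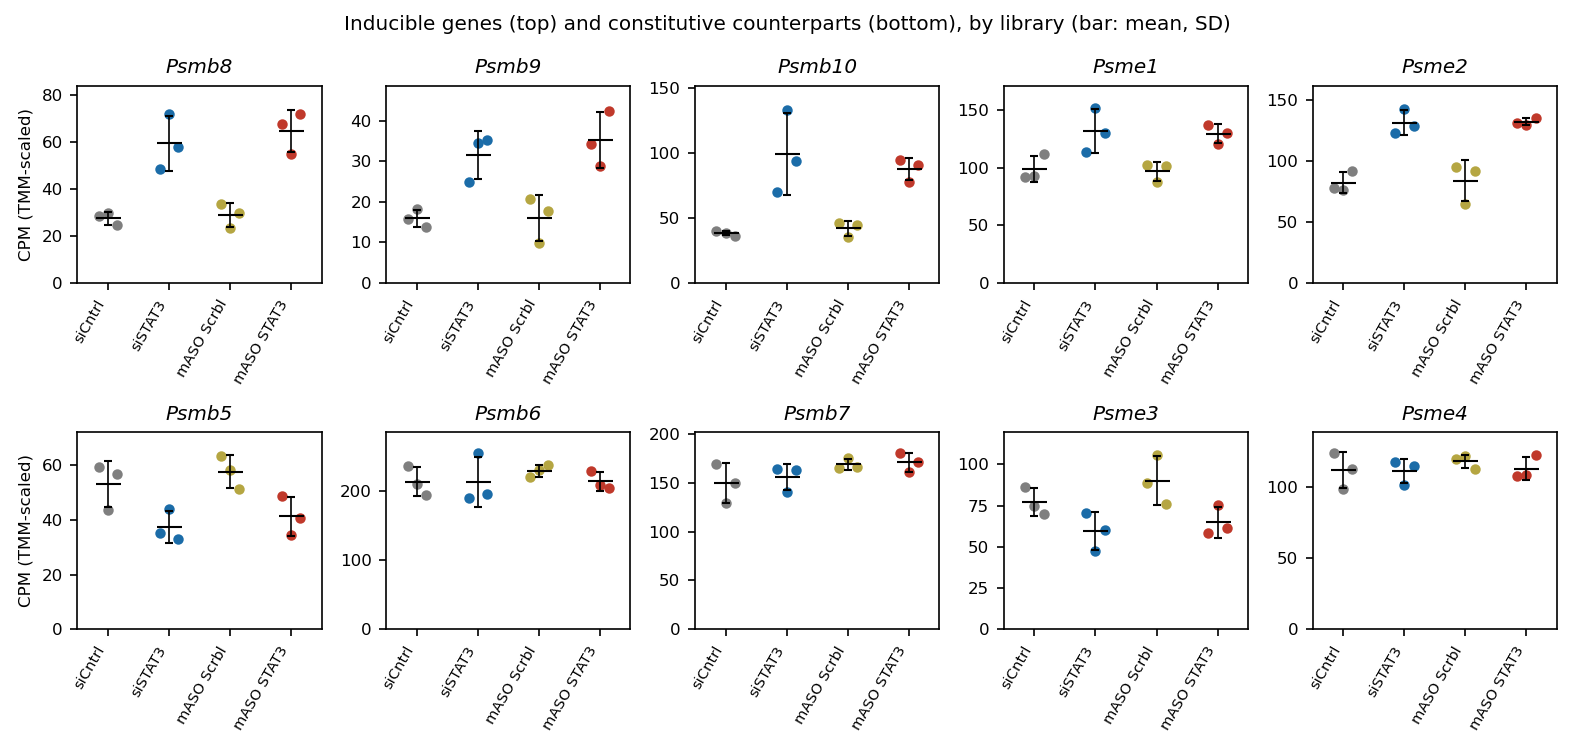
CPM on TMM-scaled totals (y axis, from 0) of the 5 inducible genes (top row) and of Psmb5, Psmb6, Psmb7, Psme3 and Psme4 (bottom row) in the 3 libraries of each group, with the mean and SD as bars. Each inducible gene is higher in every STAT3 library than in every control library of its arm, while Psmb6 and Psmb7 overlap. With library totals as the scaling the change of Psme1 falls below 0.

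A ratio of an inducible gene to its constitutive counterpart within a library does not depend on the scaling. The count ratio of Psmb8 to Psmb5 was 0.480, 0.679 and 0.432 in siCntrl and 1.38, 1.64 and 1.75 in siSTAT3, and 0.532, 0.403 and 0.585 in mASO Scrbl and 1.39, 1.59 and 1.77 in mASO STAT3. All 6 control ratios were below 1 and all 6 STAT3 ratios above it. A count ratio of 1 does not mark equal levels, since the genes differ in length. Per length Psmb8 stayed below Psmb5 in every library, at 43.2% to 49.5% of their sum in the STAT3 libraries. Over both arms the ratio was 3.10-fold higher with a STAT3 load (exact two-sided permutation test within arms, n = 3 a group, p = 0.005, the smallest it can give, and adjusted p = 0.00625 over 5 ratios).

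The count ratio of Psmb9 to Psmb6 was 0.0670, 0.0861 and 0.0706 in siCntrl and 0.131, 0.135 and 0.180 in siSTAT3, and 0.0938, 0.0424 and 0.0750 in mASO Scrbl and 0.149, 0.138 and 0.208 in mASO STAT3. That of Psmb10 to Psmb7 was 0.234, 0.298 and 0.243 in siCntrl and 0.426, 0.948 and 0.576 in siSTAT3, and 0.277, 0.202 and 0.270 in mASO Scrbl and 0.522, 0.483 and 0.531 in mASO STAT3. Neither ratio overlapped between the groups of an arm. They were 2.20-fold and 2.23-fold higher over both arms (exact permutation p = 0.005, adjusted p = 0.00625 for each). Within 1 arm, 3 against 3 libraries cannot give an exact p under 0.1, and the 3 ratios gave p = 0.1 in each arm.

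**Figure D3:**
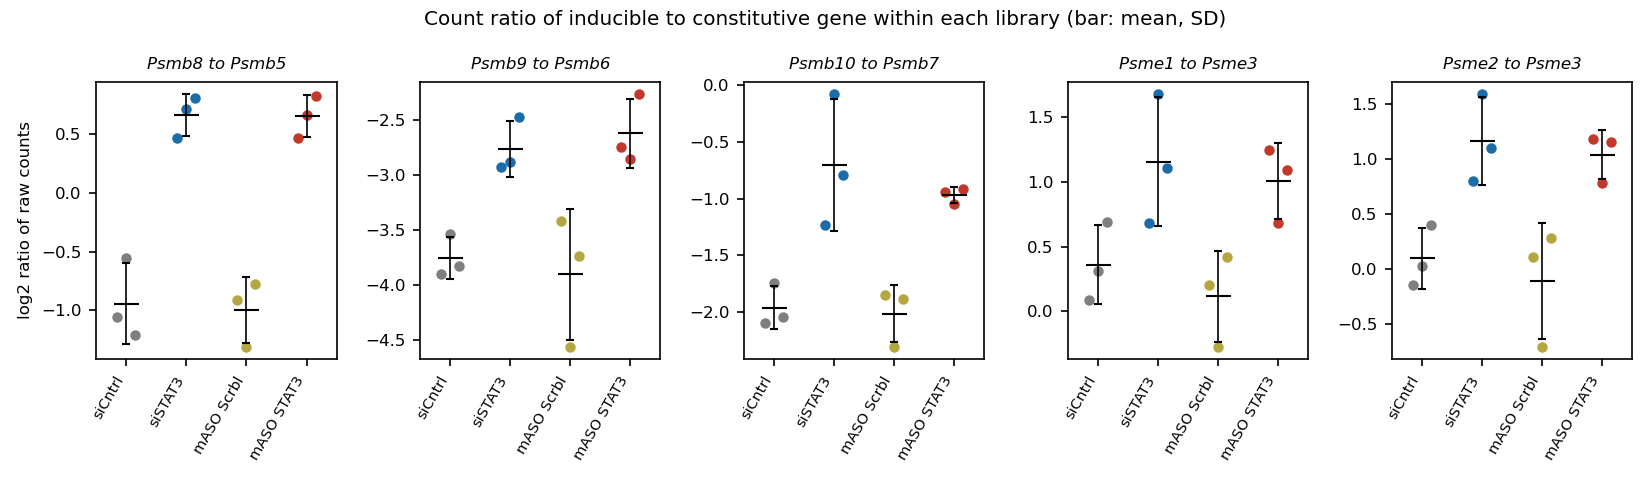
Log2 ratio of raw counts (y axis) of an inducible gene to its constitutive counterpart, or of Psme1 and Psme2 to Psme3, in each library of the 4 groups, with the mean and SD as bars. The ratio of Psmb8 to Psmb5 lies below 0 in the 6 control libraries and above 0 in the 6 STAT3 libraries. Only Psme1 to Psme3 in the siRNA arm overlaps between groups. Raw counts are not scaled by gene length, so 0 does not mark equal levels.

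Levels of different genes can be set side by side only per length, here as CPM per kilobase of GENCODE M21 exons. On that scale Psmb8 made up 22.5% ± 4.23 (SD, n = 3) of the sum of Psmb8 and Psmb5 in siCntrl, 46.7% ± 3.08 in siSTAT3, 21.8% ± 3.21 in mASO Scrbl and 46.5% ± 3.04 in mASO STAT3. Psmb10 made up 18.6% ± 1.99, 35.6% ± 9.25, 18.1% ± 2.51 and 31.2% ± 1.08 of the sum of Psmb10 and Psmb7 in the same order. Psmb9 was the smaller partner of its pair in all groups, at 4.21% ± 0.548, 8.07% ± 1.35, 3.98% ± 1.42 and 8.85% ± 1.82 of the sum of Psmb9 and Psmb6. Psmb6 was the highest of the constitutive catalytic genes in all groups, with means of 268 to 288 CPM per kilobase, and Psmb5 the lowest, with 41.6 to 64.2. The means of Psmb8, Psmb9 and Psmb10 thus lay below those of Psmb6 and Psmb7 in all 4 groups, and the means of Psmb10, at 75.5 ± 24.2 and 66.9 ± 6.56 (SD) CPM per kilobase in siSTAT3 and mASO STAT3, lay above those of Psmb5, at 41.6 ± 6.35 and 46.0 ± 7.93.

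Psme1 and Psme2 encode the alternating subunits of the interferon-inducible activator ring. Psme1 was at 91.8, 92.6 and 112 CPM in siCntrl and 114, 152 and 130 in siSTAT3, and at 102, 87.4 and 101 in mASO Scrbl and 138, 121 and 130 in mASO STAT3. The groups did not overlap, but siCntrl 3 and siSTAT3 1 were close. Psme1 rose by 0.42 ± 0.14 on the log2 scale in each arm (edgeR adjusted p = 0.0235 and 0.0238), and with library totals it turned to −0.08 and −0.16. Its call ended without siCntrl 1, siCntrl 2 or siSTAT3 2 (adjusted p = 0.0794, 0.0815 and 0.0938), and without mASO STAT3 1, mASO STAT3 3 or mASO Scrbl 2 (0.0839, 0.0605 and 0.0926). In the siRNA arm it also ended with no filter on low counts (0.0561) and with the 6 compared libraries alone in the fit (0.0614).

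Psme2 was at 78.2, 76.4 and 92.0 CPM in siCntrl and 123, 143 and 129 in siSTAT3, and at 95.6, 64.7 and 91.9 in mASO Scrbl and 132, 130 and 136 in mASO STAT3. Every STAT3 library lay above every control. Psme2 rose by 0.68 ± 0.15 (edgeR adjusted p = 0.00201) and 0.65 ± 0.15 (adjusted p = 0.00275), and with library totals the changes were 0.19 and 0.08 and not called. A near-identical gene, Psme2b, could share its reads. Its row held 134 to 1841 counts per library and varied within groups, for instance 12.5, 7.38 and 1.93 CPM in siCntrl 1, 2 and 3. With the 2 rows summed, an alternative added after the data were seen, the changes were 0.68 and 0.61 and still called.

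The other activators did not follow. Psme3 encodes an activator of the nucleus that forms its own ring. It was at 86.5, 74.8 and 69.7 CPM in siCntrl and 70.8, 47.7 and 60.5 in siSTAT3, which overlapped, and at 88.8, 105 and 75.9 in mASO Scrbl and 58.1, 75.4 and 61.2 in mASO STAT3, which did not. The change was −0.37 (edgeR adjusted p = 0.0916, and 0.0407 without siSTAT3 1) in the siRNA arm, and Psme3 fell by 0.47 (SE 0.17, adjusted p = 0.0360) in the mASO arm. That call ended without mASO STAT3 1, mASO STAT3 3, mASO Scrbl 1 or mASO Scrbl 2 (adjusted p = 0.127, 0.108, 0.0687 and 0.149). Psme4, which encodes a large monomeric activator, was at 124, 98.7 and 113 CPM in siCntrl, 117, 102 and 115 in siSTAT3, 120, 122 and 113 in mASO Scrbl and 108, 109 and 123 in mASO STAT3. Its changes of −0.0078 and −0.063 were not called, with 95% intervals from −0.27 to 0.25 and from −0.32 to 0.20.

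Within libraries, Psme2 was 2.15-fold higher relative to Psme3 with a STAT3 load over both arms (exact permutation test within arms, p = 0.005, adjusted p = 0.00625), and Psme1 was 1.79-fold higher (p = 0.01, adjusted p = 0.01). The ratio of Psme2 to Psme3 did not overlap between groups in either arm, at 0.904, 1.02 and 1.32 in siCntrl against 1.74, 3.002 and 2.14 in siSTAT3, and 1.08, 0.613 and 1.21 in mASO Scrbl against 2.26, 1.72 and 2.22 in mASO STAT3. The ratio of Psme1 to Psme3 was 1.06, 1.24 and 1.61 in siCntrl and 1.61, 3.19 and 2.15 in siSTAT3, where siCntrl 3 and siSTAT3 1 overlapped (exact p = 0.2).

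The alpha ring gates the entrance of the core. Of its 7 genes, 2 were called lower in the siRNA arm, Psma2 and Psma3, beside 23.4% of all genes. In the mASO arm 3 were called lower, Psma1, Psma2 and Psma5, beside 22.5% of all genes, and 0 were called higher in either arm. Psma2, the lowest of them by the mean of both arms, was at 165, 136 and 138 CPM in siCntrl and 103, 104 and 104 in siSTAT3, and at 157, 174 and 153 in mASO Scrbl and 112, 93.9 and 112 in mASO STAT3. The groups did not overlap, and Psma2 fell by 0.50 (edgeR adjusted p = 0.00441) and by 0.61 (adjusted p = 0.00122) in the 2 arms, in every alternative run. At the other end, Psma7 was at 156, 128 and 151 CPM in siCntrl and 169, 201 and 169 in siSTAT3, and at 151, 162 and 148 in mASO Scrbl and 210, 180 and 185 in mASO STAT3. Its groups did not overlap either, and its changes of 0.31 and 0.32 missed the threshold (adjusted p = 0.0595 and 0.0570) and turned to −0.18 and −0.27 with library totals. DESeq2's Wald test called Psma7 in both arms, at adjusted p = 0.0287 and 0.0185, and edgeR called it in the mASO arm with DESeq2's size factors (0.0413) and with the stricter filter (0.0462). The calls of Psma3 in the siRNA arm and of Psma1 and Psma5 in the mASO arm each ended without at least 2 of the single libraries. For Psma3 these were all but siSTAT3 2, with edgeR adjusted p from 0.0579 to 0.143, and the replicate block (0.0685) and a fit of the 6 compared libraries alone (0.0767) also ended it. For Psma1 they were mASO STAT3 1 and mASO Scrbl 2 (0.0584 and 0.0758), and for Psma5 all but mASO Scrbl 3, up to 0.143.

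The beta subunits without a proteolytic site, Psmb1 to Psmb4, gave 0 calls in the siRNA arm and 1 in the mASO arm, Psmb1. Of all genes 45.7% and 43.8% were called either way in the 2 arms. Psmb1 was at 189, 167 and 201 CPM in siCntrl and 189, 211 and 190 in siSTAT3, and at 177, 178 and 183 in mASO Scrbl and 248.9, 209 and 231 in mASO STAT3. The latter groups did not overlap, and Psmb1 rose by 0.36 ± 0.12 (edgeR adjusted p = 0.0266), which turned to −0.23 with library totals. The call ended with no filter (0.0804) and without any 1 of 5 libraries (adjusted p = 0.113 and 0.0686 without mASO STAT3 1 and 3, and 0.0754, 0.0653 and 0.0557 without mASO Scrbl 1, 2 and 3). Psmb3, the highest of the 4 by the mean of both arms, was at 91.8, 71.0 and 101 CPM in siCntrl and 107, 138 and 100 in siSTAT3, and at 106, 100 and 84.8 in mASO Scrbl and 144, 94.3 and 107 in mASO STAT3, with overlap in both arms. Psmb2, the lowest, was at 109, 100 and 90.8 CPM in siCntrl and 100, 112 and 106 in siSTAT3, and at 112, 114 and 112 in mASO Scrbl and 108, 92.9 and 94.2 in mASO STAT3. Its changes of 0.08 and −0.20 were not called.

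The genes of tissue-specific core subunits were near 0. Psma8, the alpha subunit of the testis, was at 2.28, 1.18 and 1.48 CPM in siCntrl and 1.85, 1.21 and 3.16 in siSTAT3, and at 1.78, 1.41 and 2.41 in mASO Scrbl and 4.04, 1.07 and 1.13 in mASO STAT3. The groups overlapped and the changes of 0.33 and 0.14 were not called. Psmb11 encodes the beta subunit of the thymus.

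The regulatory particle held most of the lower calls. Of the 6 ATPases, which form the ring that unfolds substrates, 5 were called lower in the siRNA arm and 4 in the mASO arm. Of all genes 23.4% and 22.5% were called lower. None of the ATPases was called higher. Psmc4 had the lowest mean change, at 200, 160 and 163 CPM in siCntrl against 113, 113 and 107 in siSTAT3, and at 206, 212 and 188 in mASO Scrbl against 131, 122 and 116 in mASO STAT3. The groups were well apart, and Psmc4 fell by 0.65 (SE 0.12, edgeR adjusted p = 0.000674) and by 0.71 (SE 0.12, adjusted p = 0.000338). Psmc2 had the highest mean change and was not called in either arm. It was at 151, 113 and 125 CPM in siCntrl and 115, 99.5 and 109 in siSTAT3, which overlapped, and at 157, 182 and 138 in mASO Scrbl and 120, 136 and 123 in mASO STAT3, which did not, with changes of −0.26 and −0.33. Without mASO Scrbl 3 the mASO arm change was called (edgeR adjusted p = 0.0388). Psmc1, Psmc5 and Psmc6 were called in both arms, with changes of −0.37 to −0.64, and Psmc3 only with the siSTAT3 load, at −0.39 against −0.33 in the mASO arm (adjusted p = 0.0273 and 0.0528).

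Several ATPase calls depended on single libraries. In the siRNA arm the call of Psmc1 ended without siCntrl 1, siSTAT3 1 or siSTAT3 2 (edgeR adjusted p = 0.109, 0.0648 and 0.0647), that of Psmc3 without siCntrl 1, siSTAT3 1 or siSTAT3 3 (0.113, 0.1003 and 0.0906), that of Psmc5 without siSTAT3 1 or siSTAT3 3 (0.0524 and 0.0645), and that of Psmc6 without siCntrl 1 or siSTAT3 2 (0.109 and 0.0915). A fit of the 6 compared libraries alone also ended those of Psmc1 and Psmc3 there (0.0532 and 0.0700). With the mASO loads, Psmc1 lost its call without any 1 of the libraries other than mASO Scrbl 3 (0.0502 to 0.0846), and Psmc5 without mASO STAT3 2, mASO STAT3 3, mASO Scrbl 1 or mASO Scrbl 2 (0.0749, 0.103, 0.0740 and 0.0821). The calls of Psmc4 in both arms and of Psmc6 in the mASO arm stood without each library in turn.

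Of the 11 non-ATPase subunits, 8 were called lower in the siRNA arm and 7 in the mASO arm, beside 23.4% and 22.5% of all genes. None of them was called higher. Psmd14, which encodes the metalloprotease that cuts ubiquitin chains from substrates at the entrance, had the lowest mean change of all proteasome genes. It was at 116, 85.0 and 83.8 CPM in siCntrl and 47.4, 39.6 and 44.5 in siSTAT3, and at 128, 145 and 109 in mASO Scrbl and 48.9, 55.3 and 52.8 in mASO STAT3. Even the lowest control was above the highest STAT3 library by more than the range of either STAT3 group. Psmd14 fell by 1.12 (SE 0.15, edgeR adjusted p = 5.74e-05) and by 1.29 (SE 0.15, adjusted p = 1.84e-05) on the log2 scale.

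Psmd1, a scaffold of the base, was at 169, 113 and 90.7 CPM in siCntrl and 66.9, 45.6 and 73.0 in siSTAT3, and at 177, 170 and 135 in mASO Scrbl and 62.0, 81.9 and 72.7 in mASO STAT3. The siCntrl libraries spread widely, with siCntrl 1 the highest, yet the groups did not overlap. Psmd1 fell by 1.01 (edgeR adjusted p = 0.00266) and by 1.15 (adjusted p = 0.00114), and by 0.72 in the siRNA arm without siCntrl 1. Psmd8, a lid subunit, was at 297, 269 and 285 CPM in siCntrl and 166, 157 and 157 in siSTAT3, and at 279, 319 and 295 in mASO Scrbl and 177, 158 and 163 in mASO STAT3. Its groups were far apart, and it fell by 0.83 (adjusted p = 5.82e-05) and by 0.84 (adjusted p = 5.13e-05). Psmd13, also of the lid, was at 136, 112 and 134 CPM in siCntrl and 81.8, 73.4 and 74.8 in siSTAT3, and at 135, 139 and 122 in mASO Scrbl and 102, 92.5 and 93.5 in mASO STAT3. It fell by 0.73 and by 0.46.

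Psmd3, a lid subunit, had the highest mean change of the class and was not called. It was at 161, 133 and 130 CPM in siCntrl and 132, 148 and 141 in siSTAT3, and at 167, 184 and 126 in mASO Scrbl and 129, 145 and 133 in mASO STAT3. The groups overlapped, and the changes were −0.0047 and −0.23, with 95% intervals from −0.32 to 0.31 and from −0.54 to 0.09. Psmd6 and Psmd11 were not called either, at −0.31 to −0.23. Psmd2, Psmd4 and Psmd12 were called lower in both arms, with changes of −0.52 to −0.41, and Psmd7 only in the siRNA arm, at −0.37 against −0.35 in the mASO arm (edgeR adjusted p = 0.0398 and 0.0574). These calls were less firm, except that of Psmd2 in the mASO arm, which stood in every alternative run. In the siRNA arm the call of Psmd2 ended without siCntrl 1 or siSTAT3 3 (0.0561 and 0.0528), that of Psmd4 without siSTAT3 1 or siSTAT3 3 (0.0682 and 0.0660), that of Psmd12 without siCntrl 1 or siSTAT3 2 (0.124 and 0.0918), and that of Psmd7 without any 1 library other than siCntrl 3 (up to 0.114). With the mASO loads, the call of Psmd4 ended without mASO STAT3 2, mASO STAT3 3, mASO Scrbl 1 or mASO Scrbl 2 (0.0791, 0.112, 0.0501 and 0.111). That of Psmd12 ended there without any 1 library other than mASO Scrbl 3 (up to 0.181), under the replicate block (0.0639), with DESeq2's size factors (0.0564) and with limma voom (0.0578).

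**Figure D4:**
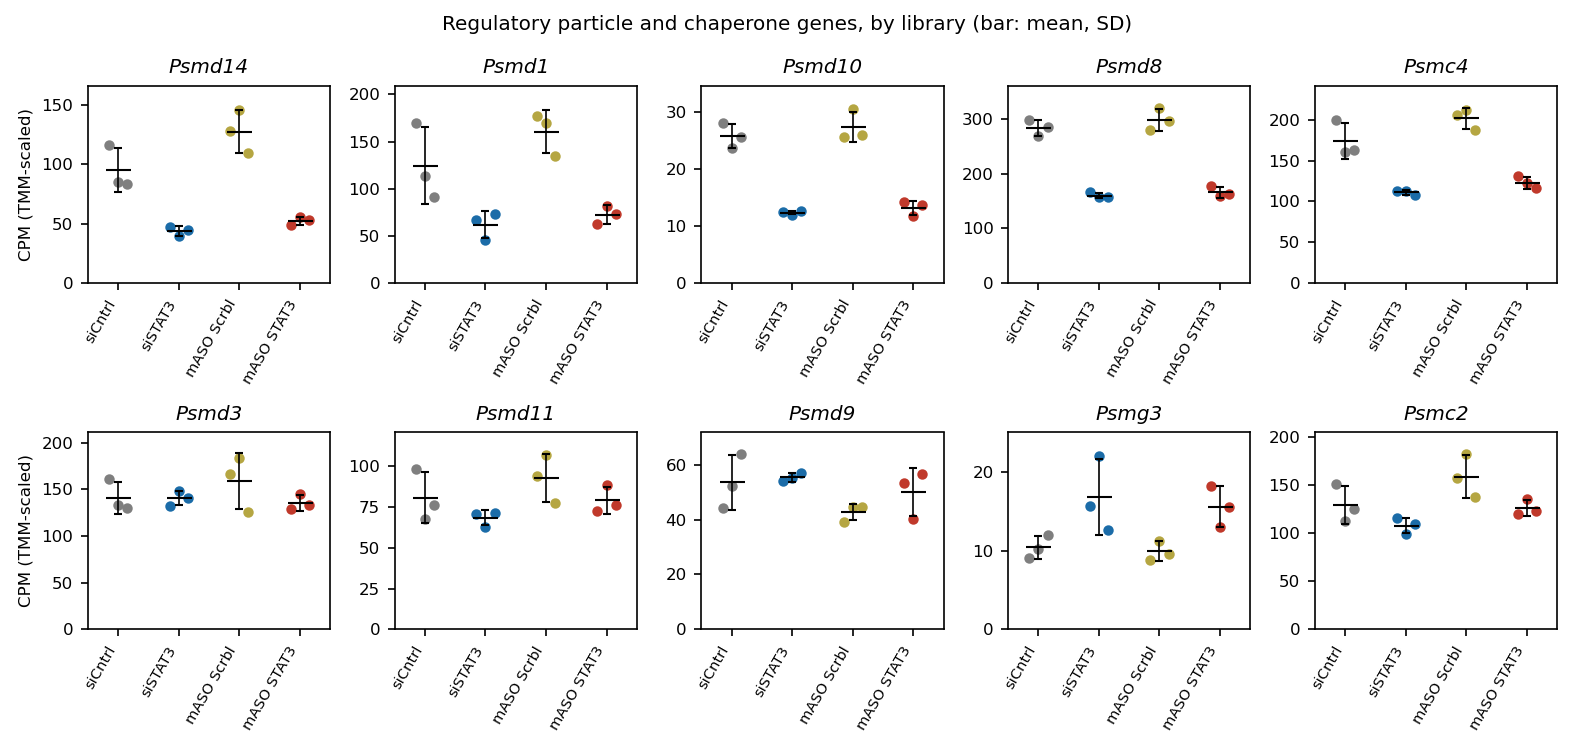
CPM on TMM-scaled totals (y axis, from 0) of 10 genes of the regulatory particle and of assembly chaperones in the 3 libraries of each group, with the mean and SD as bars. Psmd14, Psmd1, Psmd10, Psmd8 and Psmc4 (top row) are lower in every STAT3 library than in every control of their arm. Psmd3, Psmd11 and Psmd9 overlap in both arms, Psmc2 overlaps in the siRNA arm, and Psmg3 is higher in the STAT3 libraries of each arm.

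Across both arms, 4 genes were called higher in the siRNA arm and in the mASO arm whichever single library was left out, namely Psmb8, Psmb9, Psmb10 and Psme2. The lower calls that stood in the same way were Psma2, Psmc4, Psmd1, Psmd8, Psmd10, Psmd13 and Psmd14 in the siRNA arm, 7 of 17. With the mASO loads they were the same 7 with Psmc6 and Psmd2, 9 of 17. The share of all genes whose calls stood in this way was not counted. Without siSTAT3 2 the count of higher genes in the siRNA arm fell from 7 to 4. Over all genes 3222 of 16080 were then higher, in place of 3515 of 15720. Without siCntrl 1, siSTAT3 1 or siSTAT3 3 the count of lower genes in that arm fell from 17 to 9, 11 and 10. Over all genes 3400 of 16015, 3131 of 16150 and 3315 of 16144 were then lower, in place of 3675 of 15720. With the mASO loads the higher count fell from 8 to 4 without mASO STAT3 1 and to 5 without mASO STAT3 3 or mASO Scrbl 1. Over all genes 2819 of 16130, 2885 of 16033 and 2879 of 15997 were then higher, in place of 3344 of 15720. The lower count of the mASO arm fell from 17 to 11, 10, 10 and 9 without mASO STAT3 2, mASO STAT3 3, mASO Scrbl 1 and mASO Scrbl 2. Over all genes 3093 of 16139, 2839 of 16033, 3054 of 15997 and 2971 of 15986 were then lower, in place of 3542 of 15720.

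Assembly chaperones build the particle and are not part of it once finished. Of the 3 base chaperones, Psmd10, known as gankyrin, fell by 1.06 in each arm (edgeR adjusted p = 2.31e-05 and 2.37e-05). It was at 27.9, 23.7 and 25.5 CPM in siCntrl and 12.4, 11.98 and 12.6 in siSTAT3, and at 25.6, 30.4 and 26.0 in mASO Scrbl and 14.2, 11.7 and 13.6 in mASO STAT3, a clear gap in both arms. Psmd9 was at 44.3, 52.4 and 64.0 CPM in siCntrl and 54.0, 55.1 and 57.0 in siSTAT3, and at 39.2, 44.4 and 44.6 in mASO Scrbl and 53.4, 40.0 and 56.5 in mASO STAT3. Its groups overlapped and its changes of 0.049 and 0.23 were not called, as were those of Psmd5, at −0.13 and −0.33.

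The 4 core chaperones, Psmg1 to Psmg4, gave 1 higher call in the siRNA arm and 2 in the mASO arm, and 0 lower. Of all genes 22.4% and 21.3% were called higher. Psmg3 was at 9.02, 10.2 and 11.99 CPM in siCntrl and 15.7, 22.1 and 12.6 in siSTAT3, and at 8.79, 11.3 and 9.63 in mASO Scrbl and 18.2, 13.005 and 15.6 in mASO STAT3. The groups did not overlap, though siCntrl 3 and siSTAT3 3 nearly met. Psmg3 rose by 0.69 ± 0.21 (edgeR adjusted p = 0.0146) and 0.65 ± 0.21 (adjusted p = 0.0199), with 0.19 and 0.07 under library totals. Its call ended without siCntrl 1 or siSTAT3 2 (0.0546 and 0.0755) and without mASO STAT3 1, mASO Scrbl 1 or mASO Scrbl 3 (0.0872, 0.0755 and 0.0538). Psmg1 was called in the mASO arm only, where it rose from a mean of 28.1 to 37.5 CPM, by 0.41 ± 0.12 (adjusted p = 0.0143). That change turned to −0.17 with library totals. In the siRNA arm its mean was also higher with siSTAT3, but it was not called. The mASO arm call of Psmg1 ended without mASO STAT3 1, mASO STAT3 3 or mASO Scrbl 1 (0.0549, 0.0571 and 0.0603). Psmg2, which had the lowest mean change of the 4, was at 25.6, 21.7 and 24.0 CPM in siCntrl and 23.9, 29.7 and 22.1 in siSTAT3, and at 24.9, 29.6 and 21.1 in mASO Scrbl and 27.7, 21.4 and 26.3 in mASO STAT3, with overlap in both arms.

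Psmf1 encodes an inhibitor that binds the core particle. It was at 40.6, 35.4 and 33.2 CPM in siCntrl and 45.4, 45.8 and 46.1 in siSTAT3, which did not overlap, and at 37.5, 44.5 and 35.7 in mASO Scrbl and 44.3, 39.0 and 47.2 in mASO STAT3, which did. Psmf1 rose by 0.33 ± 0.13 (edgeR adjusted p = 0.0464) in the siRNA arm, and its change was 0.15 (adjusted p = 0.361) in the mASO arm. The values turned to −0.16 and −0.44 with library totals. The siRNA arm call also ended with no filter (0.138), with the replicate block (0.0707), with the 6 compared libraries alone (0.0766) and without any 1 library other than siCntrl 1 (0.0712 to 0.140).

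Genes that work with the proteasome were taken as a list of 29 symbols, 26 of them in the table. In the siRNA arm 6 were higher and 6 lower, which is near the 22.4% and 23.4% of all genes called, with a median change of 0.06. With the mASO loads 3 were higher and 7 lower, beside 21.3% and 22.5% of all genes, with a median of −0.06. The counts depended on single libraries. The higher count of the siRNA arm was 2 without siCntrl 2, siSTAT3 1 or siSTAT3 3 and 3 without siCntrl 3. Over all genes 2934 of 16012, 3205 of 16150, 3267 of 16144 and 3192 of 15970 were then higher. The lower count was 2 without siCntrl 1 and 3 without siSTAT3 2, where 3400 of 16015 and 3352 of 16080 genes were lower. The higher count of the mASO arm was 5 without mASO Scrbl 2, where 2889 of 15986 genes were higher. The medians also turned sign without some single libraries, to −0.12 in the siRNA arm without siSTAT3 2. With library totals the counts became 1 and 12, and 1 and 18, and the higher count of the siRNA arm was 2 with no filter and 3 in a fit of the 6 compared libraries alone. Usp14, a deubiquitinase that binds the regulatory particle, was at 57.1, 46.1 and 44.0 CPM in siCntrl and 37.0, 26.9 and 35.7 in siSTAT3, and at 66.7, 91.5 and 55.0 in mASO Scrbl and 35.5, 36.0 and 39.1 in mASO STAT3. Its groups did not overlap, and Usp14 fell by 0.56 (edgeR adjusted p = 0.0220) and by 0.95 (adjusted p = 0.000941). The siRNA arm call of Usp14 ended without siCntrl 1 or siSTAT3 2 (0.0897 and 0.0835). Ubqln1, which encodes a shuttle for ubiquitinated proteins, fell by 0.49 and by 0.45. Uba1, a ubiquitin-activating enzyme, had a change of −0.36 (adjusted p = 0.0779) in the siRNA arm and fell by 0.76 in the mASO arm.

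Interferon signalling and class I loading was a list of 35 genes, 34 of which passed the filter. With siSTAT3 11 were higher and 5 lower, beside 22.4% and 23.4% of all genes, with a median change of 0.27. With the mASO loads 10 were higher and 7 lower, beside 21.3% and 22.5% of all genes, with a median of 0.11. Without siSTAT3 3 the first median was 0.05, and without mASO STAT3 3 the second was −0.02. Under library totals the counts were 4 and 11, and 1 and 17. The chemokine gene Cxcl9 was at 3.13, 3.43 and 3.46 CPM in siCntrl and 11.3, 11.8 and 26.8 in siSTAT3, and at 5.51, 5.43 and 5.50 in mASO Scrbl and 18.6, 18.4 and 22.1 in mASO STAT3. All 6 STAT3 libraries lay above all 6 controls, and Cxcl9 rose by 2.31 ± 0.28 (edgeR adjusted p = 1.86e-05) and 1.85 ± 0.27 (adjusted p = 9.82e-05), and was still called with library totals. Igtp, an interferon-inducible GTPase gene, rose by 1.57 and 1.13, and was not called in the mASO arm with library totals (adjusted p = 0.0574). The members that fell include the receptor gene Ifngr1, which was at 83.7, 76.3 and 66.1 CPM in siCntrl and 34.5, 32.5 and 33.4 in siSTAT3, and at 75.8, 77.8 and 81.6 in mASO Scrbl and 32.0, 34.6 and 32.7 in mASO STAT3. Its groups were far apart, and Ifngr1 fell by 1.17 and by 1.24. Isg15, known as a target of type I interferon, was at 34.8, 12.8 and 19.6 CPM in siCntrl and 14.0, 16.9 and 18.1 in siSTAT3, and at 55.0, 80.8 and 52.9 in mASO Scrbl and 13.3, 13.9 and 17.3 in mASO STAT3. Irf7, a transcription factor gene of the same response, was at 54.4, 37.5 and 38.2 CPM in siCntrl and 44.5, 53.4 and 70.3 in siSTAT3, and at 84.0, 82.6 and 105 in mASO Scrbl and 32.9, 35.1 and 41.5 in mASO STAT3. For both genes the mASO Scrbl libraries were the highest of the 12. Isg15 fell by 2.08 and Irf7 by 1.31 in the mASO arm. With siSTAT3 the change of Isg15 was −0.46 and not called, but 0.013 without siCntrl 1, −0.74 and called without siCntrl 2 (edgeR adjusted p = 0.0306), and −0.93 and called with library totals (0.0108). That of Irf7 was 0.37 and not called, but 0.57 and called without siCntrl 1 (0.0303), and −0.12 with library totals. Ifit3, on the same list, went the other way and was called higher in both arms, by 1.61 (edgeR adjusted p = 9.11e-05) and 0.73 (0.0179). Its mASO arm call ended with library totals (0.598). It also ended without mASO STAT3 3, mASO Scrbl 1 or mASO Scrbl 2 (0.0606, 0.0651 and 0.0805). The difference between the arms was called for 0 of the 34 genes by edgeR, with 6 at an unadjusted p under 0.05. Of all 15720 genes 1 was called, and 1161 had an unadjusted p under 0.05. Ifng itself was at 0 in at least 1 library of every group and did not pass the filter.

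Neither the difference of the arms, nor mASO Scrbl against siCntrl, nor mASO STAT3 against siSTAT3 gave a call among the 47 proteasome genes by edgeR, a count of 0 in each. Over all genes it called 0.00636% in the difference of the arms, 0.0127% between the controls and 0% between the STAT3 groups, and DESeq2 and limma voom also called 0 proteasome genes. At an unadjusted p under 0.05 there were 0 genes in the difference of the arms, 1 between the controls and 1 between the STAT3 groups. Of all 15720 genes, 1161, 1234 and 919 were under it in the same order. Between the controls it was Psmd14, higher in mASO Scrbl by 0.42 ± 0.15 (edgeR adjusted p = 0.569), and between the STAT3 groups Psmd13, higher in mASO STAT3 by 0.32 ± 0.12 (edgeR adjusted p = 0.679). The groups did not overlap for 1 gene between the controls and 9 between the STAT3 groups, higher in the mASO group in each case, where 6.75% and 6.04% of all genes did so. It was 0 genes in the other direction, where 5.67% and 5.14% of all genes did so.

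Differences between the arms were not detectable, and the intervals say how large they could be. The change of Psmb8 in the mASO arm minus that in the siRNA arm was 0.05, with a 95% interval from −0.48 to 0.57. It was 0.14 for Psmb9 (from −0.60 to 0.88), −0.31 for Psmb10 (from −0.89 to 0.27), 0.0026 for Psme1 (from −0.41 to 0.42) and −0.03 for Psme2 (from −0.47 to 0.42). For Psmd14 it was −0.17 (from −0.63 to 0.29). Genes called in 1 arm and not in the other are therefore not shown to differ between the arms.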

How the data were processed

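After TRIzol extraction, messenger RNA of 12 liver samples was sequenced with a stranded Illumina kit, per the labels' protocols. The table used here holds raw counts for each gene symbol, as the authors deposited them without normalization. A signal table that the authors also deposited equals, by its values, those counts divided by a constant for each library, and it served as an alternative for the ratios. The submitters' processing notes name TopHat and Cufflinks, with no version and no role. The sources used here do not give build, annotation, counting tool or strand setting, so overlapping or near-identical genes may share reads.

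One edgeR model (4.0.16, under R 4.3.3) held the 12 libraries, with a coefficient for each group and TMM factors of 1.11 to 1.27 in the controls and 0.804 to 0.901 in the STAT3 groups. The filterByExpr rule (counts of at least 10, totals of at least 15) kept 15720 of 25540 genes. P-values of the robust quasi-likelihood F test were adjusted by Benjamini-Hochberg over those genes, with a threshold of 0.05. Intervals are 95%. Within-library ratios were tested by exact two-sided permutation (scipy 1.17.1). Gene lengths came from GENCODE M21 and promoters from RefSeq's table, matched by symbol. The steps were tested on simulated counts.

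The genes, roles, lists and alternatives were chosen with earlier results of these data known. Values in every library are given for the inducible genes, their counterparts and the highest and lowest gene of each role by the mean of the arms. Psmb1, Psmd1, Psmd8, Psmd13 and Psmg1 were added after their values were seen. Listed partner and interferon genes were named where they passed, up to 4 with the smallest p per list and arm, and some of these are not reported here. Alternatives were DESeq2's size factors and Wald test (version 1.42.0), limma voom (3.58.1), library totals, no filter, a filter of 1 CPM in 3 libraries, a replicate block, the compared libraries alone, leaving out each library, and Psme2 summed with Psme2b. Libraries that share a replicate number had residual correlations between −0.24 and 0.19, and were not treated as pairs.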

Additional observations from a re-analysis of the deposited data

How the results depend on the processing

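With library totals in place of TMM the calls of proteasome genes moved from 7 higher and 17 lower to 2 and 35 in the siRNA arm, and from 8 and 17 to 2 and 36 in the mASO arm. Under that scaling 14 proteasome genes changed sign in the siRNA arm and 12 in the mASO arm, and so did Stat3 in the latter. In the siRNA arm the log2 fold changes became −0.080 for Psme1, −0.43 for Psmb7, −0.18 for Psma7, −0.10 for Psmb3, −0.42 for Psmb2, −0.45 for Psmd9, −0.40 for Psmg2, −0.16 for Psmf1, −0.33 for Psma6, −0.41 for Psmb1, −0.25 for Psmb4, −0.15 for Psma8, −0.30 for Psmg1 and −0.28 for Psmg4. In the mASO arm they became −0.16 for Psme1, −0.56 for Psmb7, −0.27 for Psma7, −0.34 for Psmb3, −0.36 for Psmd9, −0.44 for Psmf1, −0.53 for Stat3, −0.23 for Psmb1, −0.17 for Psmg1, −0.41 for Psma6, −0.46 for Psmb4, −0.45 for Psma8 and −0.57 for Psmg4. The median of all genes moves with this scaling by construction.

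Some uncalled values close to 0 also changed sign. With DESeq2's size factors and with its Wald test, Psmb6 became 0.0032 in the siRNA arm with each. Psmd3 there became 0.00066 and 0.00062, and 0.0013 with limma voom. Psmg2 in the mASO arm became 0.019 with each of the former, 0.0019 with the stricter filter and 0.0050 under the replicate block, and Psmb7 there became −0.0025 with no filter. Leaving out single libraries gave ranges from −0.15 to 0.076 for Psmb6, −0.038 to 0.16 for Psmb7, −0.059 to 0.099 for Psmd3, −0.072 to 0.20 for Psmd9, −0.043 to 0.17 for Psmg2, −0.093 to 0.072 for Psme4 and −0.12 to 0.082 for Stat3 in the siRNA arm. In the mASO arm the ranges were −0.024 to 0.057 for Psmb7, −0.12 to 0.13 for Psmg2 and −0.042 to 0.15 for Stat3. The cause of these small moves was not tested.

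Leaving out single libraries gave 4 to 6 higher and 9 to 16 lower genes in the siRNA arm, and 4 to 8 higher and 9 to 19 lower in the mASO arm. Over all genes 2934 to 3267 were then higher and 3046 to 3400 lower in the siRNA arm, of 15970 to 16150 tested. In the mASO arm 2819 to 3121 were higher and 2839 to 3103 lower, of 15977 to 16139. With the replicate block 6 genes were higher and 16 lower with siSTAT3, and 8 and 16 with mASO STAT3, which changed only the calls of Psmf1, Psma3 and Psmd12 named above. Of all 15720 genes 3328 were then higher and 3431 lower with siSTAT3, and 3201 and 3272 with mASO STAT3. Under that block the 5 within-library ratios over both arms gave an exact sign-flip p of 0.031, the smallest it can give. Their changes kept their direction in every alternative run.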
